A study of Oryctolagus cuniculus with 12 samples.

Results

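The proteasome genes of rabbit conjunctiva were followed after trabeculectomy, a glaucoma operation that lets aqueous humour drain under the conjunctiva into a filtering bleb. Members were the rows of the gene table whose name begins with PSM, a letter from A to G and a digit, with at least 10 estimated counts in 3 libraries. Of 20566 genes, 47 matched the name and 45 passed the count minimum. One of the 45, PSMC3IP, is annotated as an interacting protein of PSMC3 and not as a subunit, so counts of members below are over the other 44 genes and PSMC3IP is described apart. RNA was sequenced from 12 libraries of female Japanese white rabbits, 3 in each of 4 groups. The group cont was conjunctiva of left eyes that were not operated on. The groups TL-3h, TL-3d and TL-14d were bleb conjunctiva of right eyes after trabeculectomy with mitomycin C, a drug that stops cells from dividing, and were named for the time of sampling (3 hours, 3 days or 14 days). Operated eyes also received betamethasone, a steroid, and an antibiotic ointment when surgery ended, so the operation and these drugs cannot be told apart. Which control eye belonged to which operated eye, and when the control tissue was taken, are not given in the sources used here. Whether the 3 libraries of a group came from separate animals is not given in the labels, and p-values measure the spread between these libraries only.

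The proteasome is the protease that degrades proteins tagged with ubiquitin. Its 20S core is a barrel of alpha rings (PSMA genes), which form the gate, and beta rings (PSMB genes), which hold the catalytic sites of PSMB5, PSMB6 and PSMB7. The 19S cap is made of an ATPase ring (PSMC genes), which unfolds the substrate, and of non-ATPase subunits (most PSMD genes), which recognise and remove ubiquitin. Interferon induces PSMB8, PSMB9 and PSMB10, which replace PSMB5, PSMB6 and PSMB7 in the immunoproteasome, and the activator PSME1 and PSME2, which together open the core in place of the cap. Immunoproteasomes are abundant in cells of the immune system and favour the making of peptides for MHC class I.

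The total estimated count per library ranged from 27111348 to 38591425, and every member that passed had more than the 3 counts that a count of 0 allows. Markers of the conjunctival surface were present in every library, KRT4 at 752 to 5977 CPM (estimated counts scaled to a common library size) and MUC4 at 1116 to 3033 CPM, whereas KRT13 and MUC5AC were not analysed here. Cell type markers differed between groups, in fits that called 23.2% of all genes higher in TL-3h and 10.6% in TL-3d. All 6 leukocyte markers rose in TL-3h and in TL-3d, their summed level being 213 to 400 CPM in cont, 1110 to 2355 CPM in TL-3h, 1618 to 1966 CPM in TL-3d and 218 to 1145 CPM in TL-14d. All 7 neutrophil markers tested rose in TL-3h. In TL-3d edgeR called 1 of 7 higher, DESeq2 called all 7 (16.2% of all genes), and 6 of 7 lay above cont without overlap (23.8% of all genes). Their sum was 4.39 to 105 CPM in cont, 1277 to 3416 CPM in TL-3h, 159 to 853 CPM in TL-3d and 3.73 to 117 CPM in TL-14d. Of the macrophage markers, 2 of 7 were called higher in TL-3h, a share near that of all genes, and 4 of 7 in TL-3d. They summed to 101 to 825 CPM in cont, 766 to 1165 CPM in TL-3h, 1394 to 2205 CPM in TL-3d and 145 to 464 CPM in TL-14d. The T and NK cell markers summed to 5.24 to 24.3 CPM in every library. In such tissue samples, fewer cells of a type and less RNA per cell cannot be told apart. Some libraries stood apart. Cont replicate 3 had the highest leukocyte, macrophage, B and plasma cell and fibroblast marker sums of its group, and TL-14d replicate 1 correlated better with the cont libraries (mean r = 0.969 over genes) than with its own group (0.914). The skeletal muscle markers summed to 291 CPM in cont replicate 2 and 379 CPM in TL-3d replicate 3 and to 0.712 to 9.57 CPM in the other libraries. Results that rest on these libraries are given with and without them.

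Per length, as FPKM (read fragments divided by transcript length and library depth), the subunits were made at levels within an order of magnitude of each other. The 29 subunits of the 20S rings and the 19S cap, called structural subunits below, spanned 22.6 to 93.8 FPKM in cont replicate 1, 23.2 to 89.7 FPKM in cont replicate 2 and 22.3 to 88.9 FPKM in cont replicate 3. PSMD14, the deubiquitinase of the cap, had the lowest level of the structural subunits in all 3 cont libraries. The median level of the 20S subunits was above that of the 19S subunits in every one of the 12 libraries, at 70.3 to 75.3 FPKM against 41.9 to 42.6 FPKM in cont and 97.9 to 125 FPKM against 52.9 to 67.6 FPKM in TL-3d. Of the 44 genes, PSME1 had the highest mean level in cont, 157 FPKM. PSMB8, at 82.0 FPKM, ranked 6 and stood above its constitutive counterpart PSMB5, at 72.9 FPKM. Means of PSMB8 in cont hid a wide spread, described with the immunoproteasome.

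At 3 hours most of the proteasome rose together. Of the 44 genes, 32 were higher and 2 were lower in TL-3h than in cont (edgeR quasi-likelihood test, adjusted p at or under 0.05), 77.3% of the members against 45.4% of all 14835 genes tested. Members higher came to 72.7% against 23.2% of all genes, and 22.2% of all genes were lower. The median log2 fold change of the members was 0.71, beside 0.02 over all genes. Of the structural subunits among the members, 6 of 6 alpha ring genes, 6 of 6 beta ring genes, 6 of 6 ATPase genes and 10 of 11 non-ATPase genes were higher. PSMD4, a ubiquitin receptor of the cap, was the structural subunit that did not pass the test (log2 fold change 0.22 ± 0.16 (SE), adjusted p = 0.30). The level of every TL-3h library lay above every cont library in 33 members, beside 28.9% of all genes, and below in 1, beside 28.3%.

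**Figure D1:**
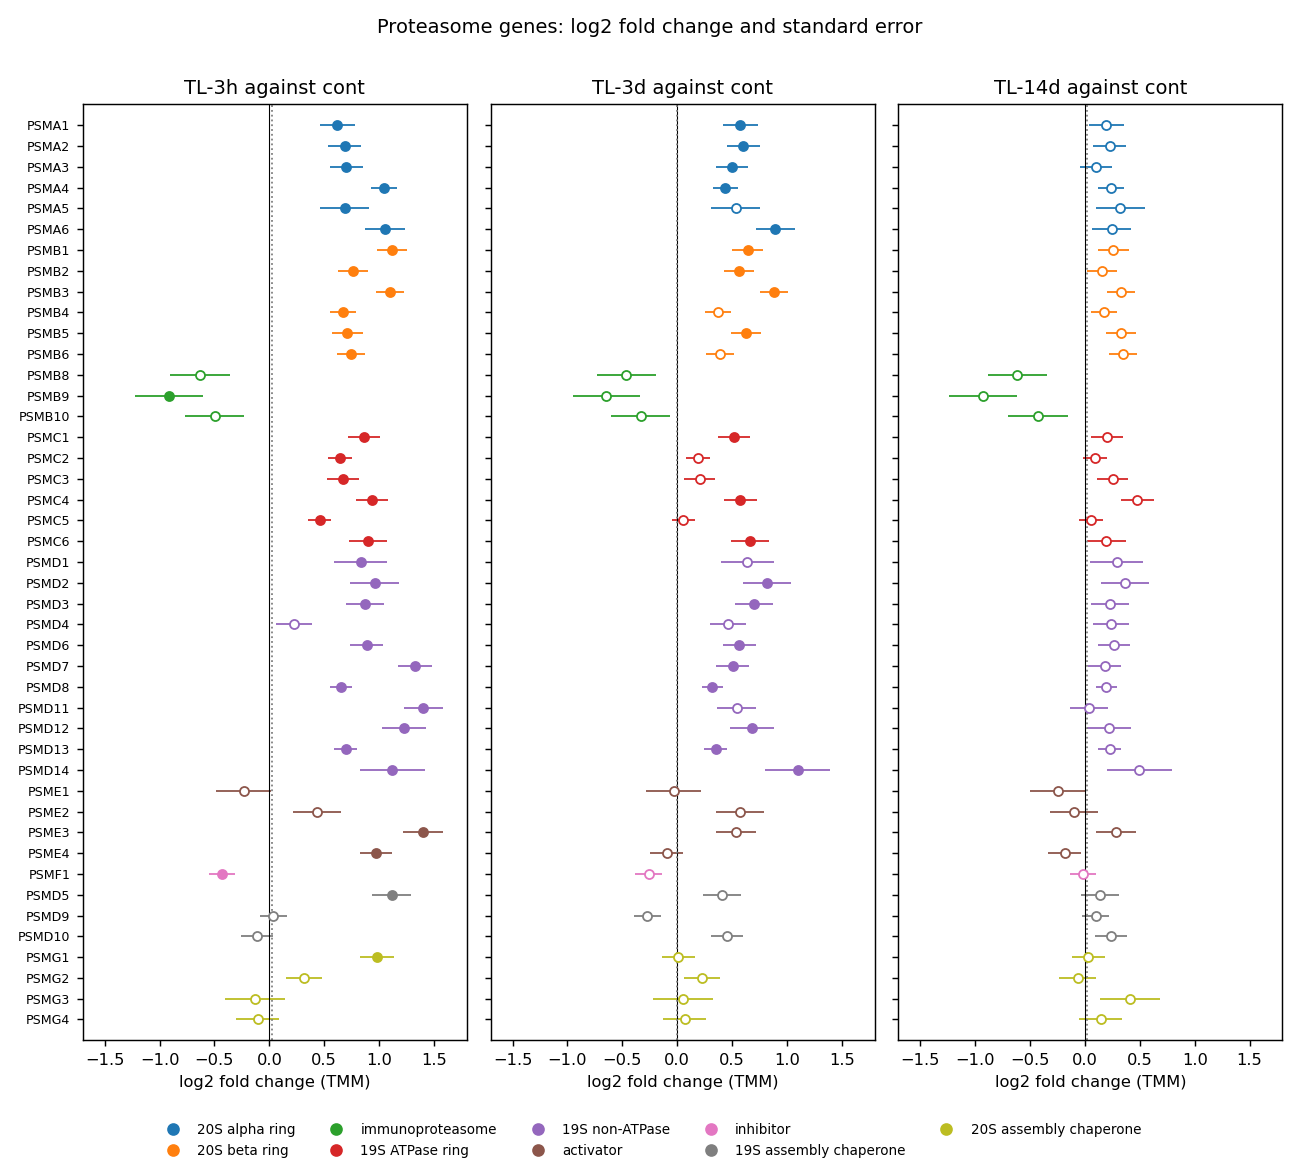
Log2 fold change (x axis, TMM scaling) of each proteasome gene (y axis) in TL-3h, TL-3d and TL-14d against cont, coloured by role; bars are standard errors, filled points passed adjusted p at or under 0.05, and the dotted line is the median over all genes. The 20S ring and 19S cap genes lie to the right at 3 hours and 3 days, whereas PSMB8, PSMB9 and PSMB10 lie to the left in all 3 panels.

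The largest rises at 3 hours were in non-ATPase subunits of the cap and in a nuclear activator. PSMD11, a scaffold subunit of the lid, was at 84.4, 83.7 and 87.0 CPM in cont and 218, 229 and 227 CPM in TL-3h, a 2.65-fold rise (log2 1.40 ± 0.18, adjusted p = 0.00021). Its levels at 3 hours were separated from the controls by more than the whole range of either group. PSME3, which encodes the nuclear activator PA28 gamma, was at 88.4, 80.7 and 88.3 CPM in cont and 228, 226 and 224 CPM in TL-3h (log2 1.40 ± 0.18, adjusted p = 0.00026). PSMD7, the partner of the deubiquitinase PSMD14, went from 66.4, 61.8 and 67.1 CPM to 169, 171 and 151 CPM (log2 1.33 ± 0.15, adjusted p = 0.00014). PSMD12, another lid subunit, went from 70.1, 71.1 and 82.6 CPM to 177, 171 and 176 CPM (log2 1.23 ± 0.20, adjusted p = 0.00095). Groups did not overlap for any of these genes, beside 28.9% of all genes higher without overlap. The genes were picked for their large rises, so this adds no support. PSMD14 itself was at 32.2, 32.9 and 33.8 CPM in cont and 69.8, 61.2 and 84.3 CPM in TL-3h (log2 1.12 ± 0.30, adjusted p = 0.011). It did not keep its call with library size only. Within the structural subunits the log2 fold changes ranged from 0.22 to 1.40 with quartiles at 0.69 and 1.04, with SEs such as 0.16 for PSMD4 and 0.30 for PSMD14, and whether the subunits differed from each other was not tested.

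**Figure D2:**
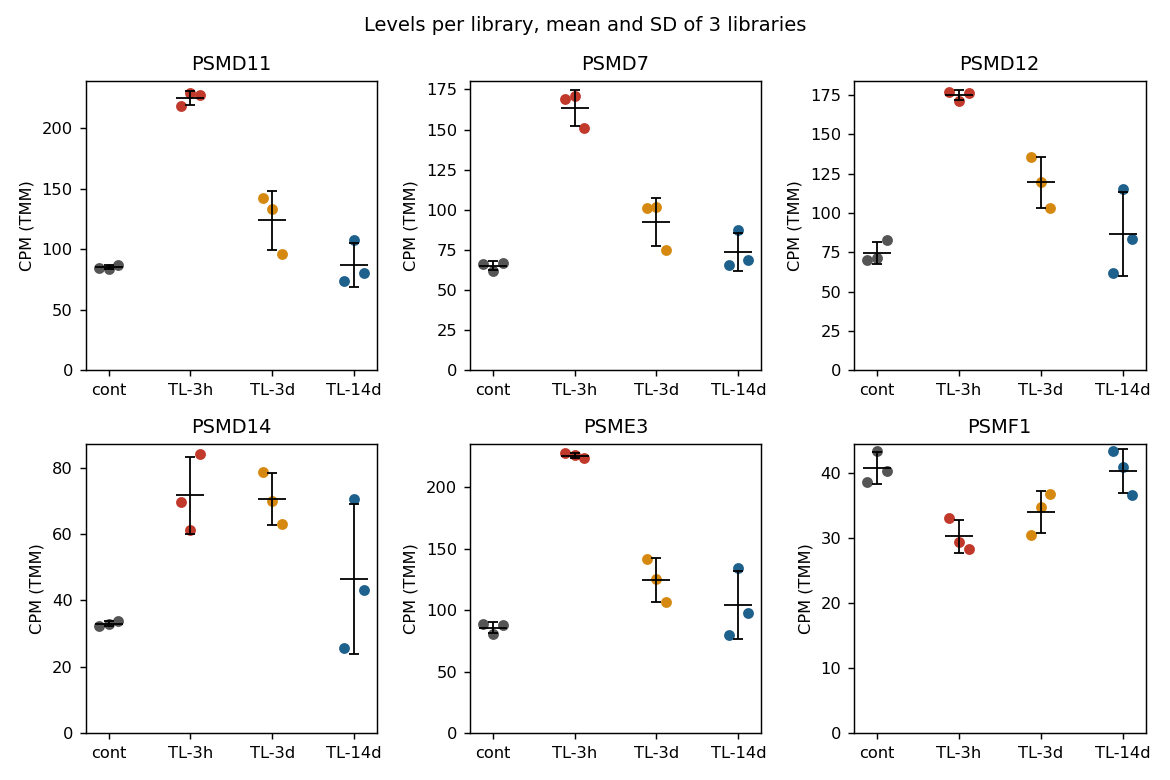
Level in each library (points, CPM with TMM scaling), with the mean and SD of 3 libraries, for the 5 members with the largest rise at 3 hours and for PSMF1, the inhibitor gene that fell. TL-3h lies above cont without overlap in the first 5 panels and below it for PSMF1. The genes were picked for these differences, and 28.9% of all genes lay above and 28.3% below without overlap.

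Among the activators, PSME4, which encodes PA200, was at 163, 157 and 144 CPM in cont and 288, 258 and 364 CPM in TL-3h (log2 0.97 ± 0.15, adjusted p = 0.00061), then at 157, 150 and 128 CPM in TL-3d and 126, 144 and 137 CPM in TL-14d. PSME4 passed the test against cont at 3 hours and not at the later times, and its fall from 3 hours to 3 days was itself past the threshold. PSME1 was at 171, 166 and 109 CPM in cont and 160, 99.3 and 120 CPM in TL-3h, overlapping (log2 -0.23 ± 0.25, adjusted p = 0.49). PSME2 was at 68.2, 72.0 and 53.5 CPM in cont and 102, 78.1 and 81.0 CPM in TL-3h, a difference without overlap that did not pass the test (log2 0.43 ± 0.22, adjusted p = 0.14) and had the opposite sign with scaling by library size only (-0.08). PSMF1, the inhibitor PI31, was one of the 2 genes that fell, from 38.6, 43.4 and 40.4 CPM to 33.1, 29.4 and 28.3 CPM (log2 -0.43 ± 0.12, adjusted p = 0.014). Without cont replicate 2 its adjusted p was 0.0572.

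Assembly chaperones moved 1 by 1. PSMG1, which helps build the alpha ring, rose in TL-3h (log2 0.98 ± 0.15, adjusted p = 0.00067), while its partner PSMG2 was at 0.31 ± 0.17 and PSMG3 and PSMG4 were at -0.13 and -0.10, none of these past the threshold. PSMD5, a chaperone of the ATPase ring, rose (log2 1.12 ± 0.18, adjusted p = 0.00072), and the chaperones PSMD9 and PSMD10 were at 0.04 and -0.11. With library size only PSMG2 was at -0.18, and PSMD9 (-0.46, adjusted p = 0.013) and PSMD10 (-0.61, adjusted p = 0.010) were called lower, beside 38.2% of all genes. In that setting 1 of the 4 chaperone genes of the core was called lower as well. So 1 of 4 chaperone genes of the core and 1 of 3 of the cap were higher at 3 hours, shares near the 23.2% of all genes.

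The size of the rise at 3 hours depended on the scaling between libraries. TMM factors were 0.768 to 0.783 in the TL-3h libraries and 1.03 to 1.13 in all others. With scaling by library size only, the median over all genes fell to -0.47 and that of the members to 0.21. The members lay 0.68 above the median of all genes under either scaling. A scaling moves all genes of a library alike, so this agreement was fixed beforehand and does not show that the members rose. Of the 34 calls with TMM, 20 were lost with library size only. Under library size only, 12 members were higher and 8 lower, 27.3% and 18.2% of the members against 12.7% and 38.2% of all genes. Those 12 genes were PSMA4, PSMA6, PSMB1, PSMB3, PSMC4, PSMD5, PSMD7, PSMD11, PSMD12, PSME3, PSME4 and PSMG1, and they kept their call under every alternative run. None of the 29 structural subunits was called lower under library size only, and PSMC5 alone of the members called with TMM changed sign (-0.04 against 0.46). The fibroblast markers, chiefly collagen genes, summed to 105042 to 125553 CPM in TL-3h and 12161 to 76286 CPM in cont, and their part in the scaling was not tested.

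The immunoproteasome genes did not follow the rest of the core. PSMB8 was at 150, 108 and 73.0 CPM in cont, 88.3, 64.4 and 61.1 CPM in TL-3h, 102, 71.3 and 66.4 CPM in TL-3d and 82.0, 73.6 and 60.3 CPM in TL-14d. PSMB9 was at 66.0, 51.2 and 27.7 CPM in cont, 32.3, 22.1 and 22.6 CPM in TL-3h, 40.3, 25.7 and 26.5 CPM in TL-3d and 29.1, 24.8 and 22.1 CPM in TL-14d. PSMB10 was at 56.9, 47.9 and 29.5 CPM in cont, 39.9, 27.7 and 27.4 CPM in TL-3h, 40.3, 32.5 and 33.6 CPM in TL-3d and 43.8, 29.0 and 27.02 CPM in TL-14d. Operated groups had lower means than cont for all 3 genes at all 3 times, but every operated group overlapped cont, since cont replicate 3 was the lowest control for each gene.

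Of these 9 differences 1 passed the test, that of PSMB9 in TL-3h (log2 -0.91 ± 0.31, adjusted p = 0.034), where 22.2% of all genes were lower (7% in TL-3d and 0% in TL-14d). The call rested on single libraries: it was lost without cont replicate 1 (adjusted p = 0.144), cont replicate 2, TL-3h replicate 2 or TL-3h replicate 3, and where only the cont and TL-3h libraries were fitted. Without cont replicate 3 the log2 fold change of PSMB9 was -1.25 (adjusted p = 0.0037) in TL-3h and -0.94 (adjusted p = 0.039) in TL-3d, and that of PSMB8 was -0.91 (adjusted p = 0.016) in TL-3h. With all libraries PSMB8 was at -0.63 ± 0.27 (adjusted p = 0.085) and PSMB10 at -0.50 ± 0.27 (adjusted p = 0.16) in TL-3h. The DESeq2 Wald test called PSMB8 (adjusted p = 0.048) and PSMB9 (adjusted p = 0.010) lower in TL-3h, beside 26.5% of all genes. Under library size only, all 3 genes were called lower at 3 hours, a setting that called 38.2% of all genes lower.

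**Figure D3:**
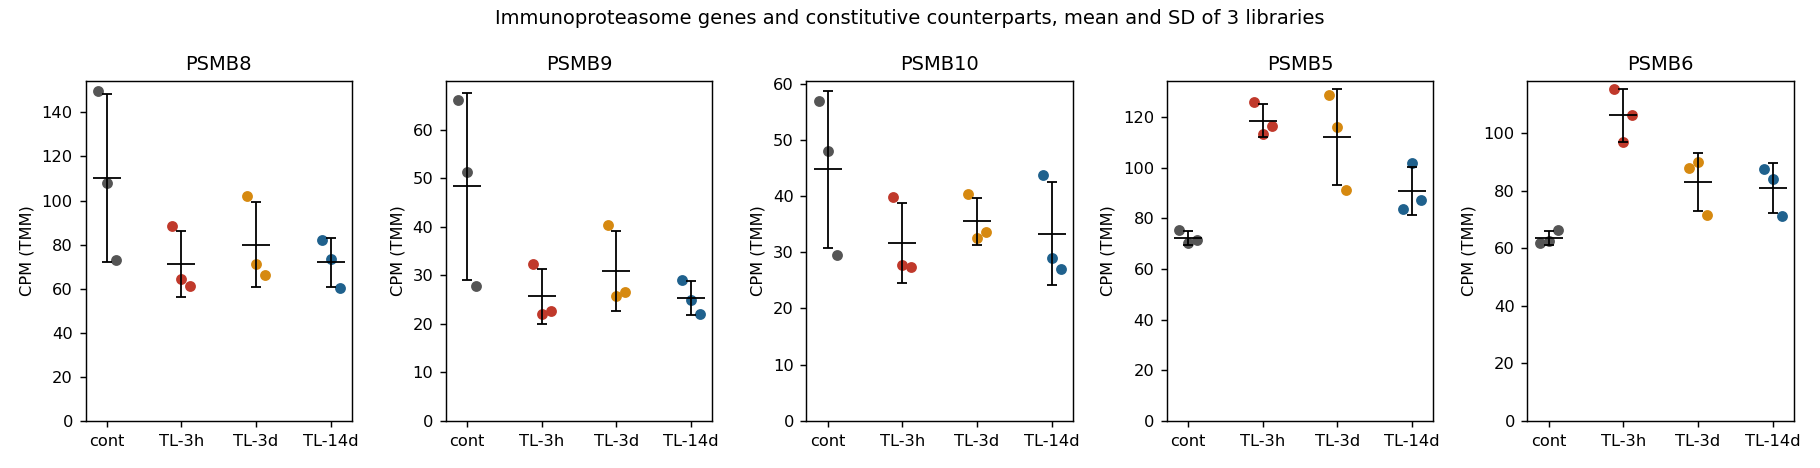
Level in each library (points, CPM with TMM scaling, means and SD of 3 libraries) of the immunoproteasome genes PSMB8, PSMB9 and PSMB10 and of the constitutive PSMB5 and PSMB6. The cont libraries spread widely for the first 3 genes and narrowly for the last pair, which lie higher in every operated group.

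Of the constitutive counterparts, PSMB5 and PSMB6 were called higher at 3 hours with TMM, but neither kept its call with library size only. PSMB5, the chymotrypsin-like subunit, was at 75.4, 70.1 and 71.6 CPM in cont, 126, 113 and 116 CPM in TL-3h (log2 0.71 ± 0.14, adjusted p = 0.0022), 129, 116 and 91.3 CPM in TL-3d (log2 0.63 ± 0.14, adjusted p = 0.018) and 83.8, 102 and 87.2 CPM in TL-14d (log2 0.33 ± 0.14, adjusted p = 0.46). PSMB6, the caspase-like subunit, was at 62.0, 62.5 and 66.3 CPM in cont, 115, 97.0 and 106 CPM in TL-3h (log2 0.74 ± 0.13, adjusted p = 0.0011), 87.9, 90.0 and 71.5 CPM in TL-3d (adjusted p = 0.060) and 87.7, 84.1 and 71.3 CPM in TL-14d. The 3-day call of PSMB5 was lost in 4 of 20 alternatives. Neither gene overlapped cont at any time, beside 28.9%, 23.8% and 6.03% of all genes higher without overlap in TL-3h, TL-3d and TL-14d. PSMB7, the trypsin-like subunit, has no row of its own name and was taken as the sum of 2 unplaced rows annotated as this subunit, LOC100349446 and LOC103352017, which lie outside the naming rule and could share reads. The larger, LOC100349446, averaged 46.0 ± 1.78 CPM (SD) in cont, 66.4 ± 7.70 CPM in TL-3h (log2 0.53, adjusted p = 0.021) and 66.8 ± 11.2 CPM in TL-3d (log2 0.54, adjusted p = 0.044). The smaller, LOC103352017, was at 4.94, 5.003 and 4.46 CPM in cont and did not pass the test in TL-3h (log2 0.41, adjusted p = 0.16) or TL-3d (log2 0.23, adjusted p = 0.47).

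A ratio within a library does not depend on the scaling between libraries. As FPKM, PSMB8 stood to PSMB5 at 1.46, 1.13 and 0.749 in cont, 0.515, 0.417 and 0.385 in TL-3h, 0.582, 0.451 and 0.534 in TL-3d and 0.719, 0.531 and 0.507 in TL-14d. All 9 operated libraries lay below all 3 cont libraries. The mean log2 ratio of counts fell by 1.30 in TL-3h, 1.05 in TL-3d and 0.89 in TL-14d (exact two-sided permutation p = 0.10 for each, the smallest that 3 against 3 libraries allow, adjusted p = 0.15 over 9 comparisons). PSMB9 stood to PSMB6 at 1.06, 0.820 and 0.418 in cont, 0.279, 0.227 and 0.213 in TL-3h, 0.458, 0.286 and 0.371 in TL-3d and 0.332, 0.295 and 0.310 in TL-14d. Its mean log2 ratio differed by -1.58 in TL-3h and -1.20 in TL-14d without overlap (exact p = 0.10, adjusted p = 0.15) and by -0.97 in TL-3d with overlap (exact p = 0.20). PSMB10 to PSMB7 differed by -0.98 in TL-3h without overlap (exact p = 0.10) and by -0.79 in TL-3d and -0.61 in TL-14d with overlap (exact p = 0.20 each, adjusted p = 0.20). With 3 against 3 libraries this exact test cannot give an adjusted p of 0.05, whatever the size of the difference.

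**Figure D4:**
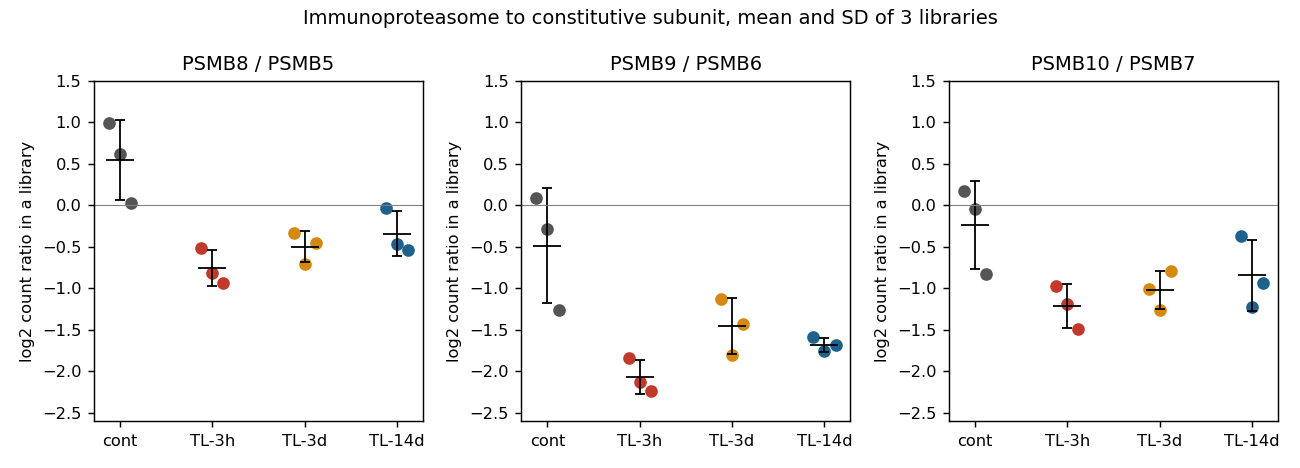
Log2 ratio of estimated counts within each library (points), with the mean and SD of 3 libraries, for PSMB8 to PSMB5, PSMB9 to PSMB6 and PSMB10 to PSMB7 in the 4 groups. The cont means are the highest in each panel, and the lowest cont point in each is replicate 3.

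Genes that work with the immunoproteasome were a list of 16 genes of class I antigen presentation and interferon response, 14 of which could be tested. In TL-3h, PDIA3, a chaperone of class I loading, was higher (log2 0.48, but -0.03 with library size only) and 3 were lower, beside 23.2% and 22.2% of all genes, with a list median of -0.33. Under library size only, 0 were higher and 8 lower, beside 12.7% and 38.2% of all genes. NLRC5, the transactivator of MHC class I genes, fell from 47.8, 35.7 and 16.8 CPM to 7.73, 12.8 and 4.90 CPM (log2 -1.98 ± 0.42, adjusted p = 0.0037). ERAP1, which trims peptides for class I, fell from a mean of 140 ± 36.0 CPM to 44.1 ± 24.8 CPM (log2 -1.67 ± 0.42, adjusted p = 0.0083). CIITA, the transactivator of class II genes, was at 21.0, 18.1 and 8.33 CPM in cont, 6.61, 4.61 and 3.73 CPM in TL-3h (log2 -1.66 ± 0.42, adjusted p = 0.0091) and 32.1, 44.9 and 51.1 CPM in TL-3d (log2 1.43 ± 0.41, adjusted p = 0.042), the list's 1 gene called higher at 3 days, beside 10.6% of all genes. The peptide transporters TAP1 and TAP2 were at -0.32 and -0.64 in TL-3h and did not pass the test. IFNG, which encodes interferon gamma, averaged 0.173 CPM in cont and 0.213 CPM in TL-3h and was under the count filter. NLRC5 and CIITA, like the 3 immunoproteasome genes, had their lowest cont value in replicate 3. Leukocyte markers were higher in the TL-3h and TL-3d libraries than in cont, and their part in the immunoproteasome values was not tested.

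At 3 days members were again higher than in cont. In TL-3d 20 of the 44 genes were higher than in cont and none was lower, 45.5% of the members against 17.6% of all genes in either direction and 10.6% higher. All 20 were structural: 5 of 6 alpha ring, 4 of 6 beta ring, 3 of 6 ATPase and 8 of 11 non-ATPase genes. Whether structural and other members differed was not tested, and values not past the threshold such as those of PSME2 (log2 0.58) and PSMD10 (0.45) were above those of the called PSMD8 (0.32) and PSMD13 (0.35). The member median was 0.48, beside 0.00 over all genes. It was below the median of 0.71 at 3 hours with TMM, but with library size only the order was reversed, at 0.46 in TL-3d and 0.21 in TL-3h. A change of scaling moves all genes of a library alike. Above the median of all genes, the members lay by 0.48 at 3 days and 0.68 at 3 hours under either scaling. The groups did not overlap in 31 members that were higher, 70.5%, against 23.8% of all genes, and in 2 that were lower (21.7% of all genes). PSMD14 was the largest, at 78.8, 70.0 and 63.1 CPM (log2 1.10 ± 0.29, adjusted p = 0.033), and differed from TL-3h by a log2 fold change of -0.02 ± 0.29. PSMA6, of the alpha ring, went from 61.6, 71.8 and 64.5 CPM in cont to 129, 130 and 110 CPM (log2 0.90 ± 0.18, adjusted p = 0.016). PSMB3, of the beta ring, went from 50.5, 49.5 and 52.4 CPM to 100, 98.05 and 82.0 CPM (log2 0.88 ± 0.13, adjusted p = 0.0091). PSMD2, the large scaffold of the cap's base, went from 196, 186 and 194 CPM to 386, 363 and 264 CPM (log2 0.82 ± 0.22, adjusted p = 0.033), and PSMD3 from 88.8, 87.0 and 96.7 CPM to 170, 163 and 109 CPM (log2 0.70 ± 0.18, adjusted p = 0.026). TL-3d replicate 3 was the lowest of its group in 27 of the 29 structural subunits. The epithelial markers summed to 18384, 17517 and 7912 CPM in TL-3d replicates 1 to 3 and to 8031 to 12662 CPM in cont, with 1 of 7 higher and 1 lower in TL-3d. The fibroblast markers summed to 1328, 11713 and 64685 CPM in the same TL-3d replicates and to 12161 to 76286 CPM in cont, with 0 of 6 past the test. The part of these cells and of skeletal muscle in the result was not tested. Without TL-3d replicate 3, 22 members were called, beside 9.05% of all genes higher and 6.17% lower.

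The calls at 3 days rested on single libraries. Leaving out cont replicate 1, cont replicate 2, TL-3d replicate 1 or TL-3d replicate 2 left 1 member called each time, while the share of all genes called higher fell to 2.25%, 1.76%, 2.44% and 1.97%. Leaving out cont replicate 3 left 6 members higher (8.61% of all genes) and 1 lower (6.06% of all genes). PSMB3 was the member that kept its call under every alternative run. No sign of the 20 genes changed under any of them, and the DESeq2 Wald test called 26 members higher (16.2% of all genes) and 0 lower, 24 of them structural, 1 an activator and 1 a chaperone of the cap.

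At 14 days no member passed the test, nor did any of the 14835 genes (0%). By DESeq2 no member passed either (2.47% of all genes). An unadjusted p under 0.05 was reached by 6 members, 13.6%, against 10.4% of all genes: PSMB3, PSMB5, PSMB6 and PSMC4 with positive and PSMB8 and PSMB9 with negative log2 fold changes. The member median was 0.20, and the structural subunits ranged from 0.03 to 0.50. In 9 members, 20.5% against 6.03% of all genes, every TL-14d library lay above every cont library. The 3 libraries differed: TL-14d replicate 2 was above all cont libraries in 29 of 29 structural subunits, replicate 3 in 23 and replicate 1 in 12. The median log2 level of the structural subunits relative to the cont mean was 0.46 in replicate 2, 0.15 in replicate 3 and 0.01 in replicate 1. Leukocyte markers summed to 1145, 534 and 218 CPM in the same libraries in that order, and their part was not tested. With cont replicate 3 and TL-14d replicate 1 both left out, 2 members were called, both lower (2.15% of all genes): PSMB9 (log2 -1.34, adjusted p = 0.034) and PSMB10 (log2 -0.92, adjusted p = 0.044).

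**Figure D5:**
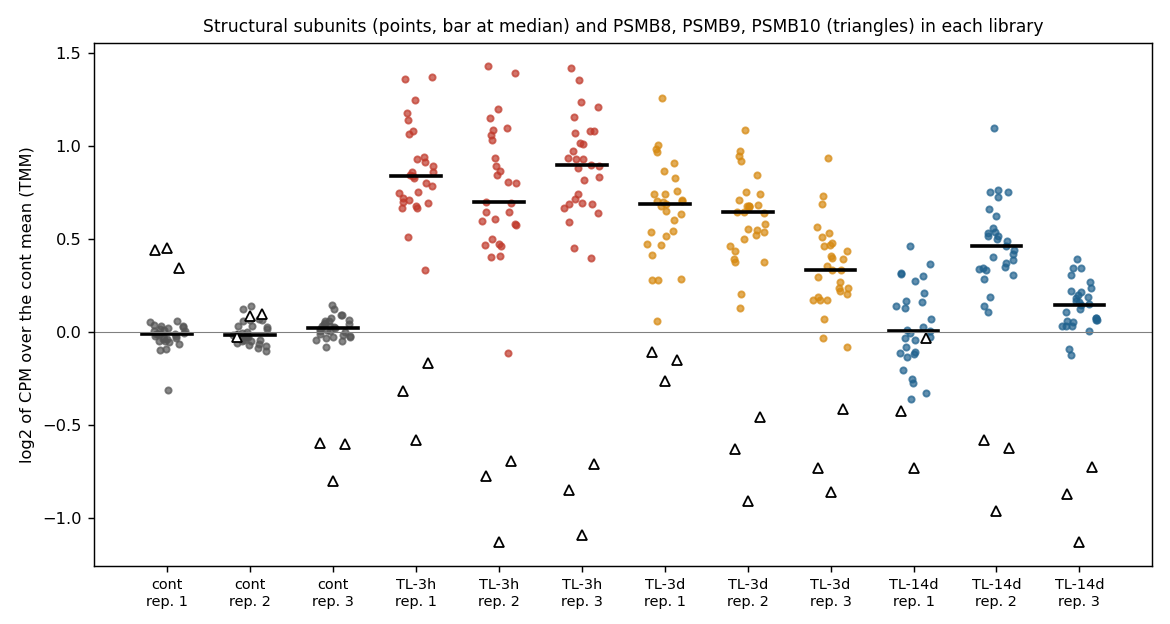
Log2 of CPM over the cont mean for the 29 structural subunits (points, bar at the median) and for PSMB8, PSMB9 and PSMB10 (triangles) in each of the 12 libraries. Structural medians lie at 0.70 to 0.90 in TL-3h, 0.33 to 0.69 in TL-3d and 0.01 to 0.46 in TL-14d, with the triangles below them in all operated libraries.

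Between the operated groups, 14 of the 44 members differed in TL-3d against TL-3h (37.3% of all genes), 1 higher and 13 lower, beside 18.4% and 19% of all genes. Under library size only the split was 4 higher and 2 lower, beside 34.2% and 8.31% of all genes. The lower genes included PSME4, PSMG1, PSMD11, PSME3 and PSMD7, each of which had risen at 3 hours. In TL-14d against TL-3d 0 members passed (2.24% of all genes), 13 had an unadjusted p under 0.05 (22.6% of all genes), and DESeq2 called 5 (12.5% of all genes), a share of the members near that of all genes.

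Partners of the proteasome were taken from 2 further lists. Of 18 regulators and partners, 13 could be tested, of which 6 were higher and 1 lower in TL-3h, beside 23.2% and 22.2% of all genes. The 6 were DDI2, the protease that activates NFE2L1 (log2 1.02 ± 0.21, adjusted p = 0.0035), POMP, the maturation factor of the core (0.90 ± 0.17, adjusted p = 0.0019), the cap-bound deubiquitinases UCHL5 (1.24 ± 0.18) and USP14 (1.06 ± 0.16), AKIRIN2, which takes proteasomes into the nucleus (1.11 ± 0.12), and TXNL1, a thioredoxin of the cap (1.07 ± 0.18). PAAF1, which binds the ATPase ring, fell from 16.4, 17.2 and 13.4 CPM to 6.07, 6.02 and 6.95 CPM (log2 -1.30 ± 0.18, adjusted p = 0.00033). NFE2L1, the transcription factor that drives proteasome genes when the proteasome is impaired, had a log2 fold change of -0.44 ± 0.16 in TL-3h (adjusted p = 0.051). In TL-3d, POMP was the list's 1 gene higher (0.70 ± 0.17, adjusted p = 0.023), beside 10.6% of all genes. Under library size only, 4 of the 13 were higher and 4 lower in TL-3h, beside 12.7% and 38.2% of all genes.

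Of 19 genes of ubiquitin supply and delivery, 12 could be tested. In TL-3h 5 were higher and 1 lower, beside 23.2% and 22.2% of all genes, and 3 were higher and 3 lower under library size only, beside 12.7% and 38.2%. The activating enzyme UBA6 (log2 1.17 ± 0.16), the shuttle receptors RAD23B (0.69 ± 0.14) and UBQLN1 (1.14 ± 0.19), the unfoldase VCP (0.76 ± 0.20) and its cofactor NSFL1C (1.22 ± 0.12) rose, and FAF1, another VCP cofactor, fell (-1.20 ± 0.22). UBB, a polyubiquitin gene, was at 0.36 ± 0.18 (adjusted p = 0.13). The median of this list was 0.35, as was that of the regulators, beside 0.71 for the proteasome genes. In TL-3d NSFL1C and UFD1L were higher and UBQLN2 was lower, beside 10.6% and 7% of all genes. No gene of either list passed the test at 14 days.

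PSMC3IP, which matches the naming rule but works in meiotic recombination, moved unlike the subunits. It was at 6.72, 4.70 and 2.56 CPM in cont, 1.85, 1.70 and 1.28 CPM in TL-3h (log2 -1.53 ± 0.37, adjusted p = 0.0068), 15.6, 10.8 and 15.4 CPM in TL-3d (log2 1.58 ± 0.36, adjusted p = 0.020) and 7.67, 4.29 and 5.34 CPM in TL-14d. The 2 rows that did not pass the count minimum were PSMA8, the testis alpha subunit, listed at 0 in every library, and PSMB11, the thymus subunit, with at most 15 counts. PSMA7 was not analysed here.

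Gene values rested mostly on 1 transcript model, since 34 of the 44 genes had 1 transcript row and 10 had several. PSMB4 was split between 2 rows, the larger holding 65.4% of its transcript counts in cont, 61.4% in TL-3h, 65.7% in TL-3d and 62.6% in TL-14d. The largest of the 3 rows of PSMD4 held a mean of 73.1% to 76.0% in the 4 groups, and the largest of the 5 rows of PSMG3, a chaperone gene of the core, 53.4% to 57.8%. PSME1 ends inside the neighbouring EMC9 on the other strand by a few bases. All 12 of its counts held fractions, as did those of PSMC1 and PSMG3. How far this makes their levels less certain was not tested.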

How the data were processed

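The authors mapped 150 bp paired-end reads of a stranded poly(A) library kit to OryCun2.0 with STAR 2.6.0c, per the labels and the study's methods, and used GeneData Profiler Genome. They deposited estimated counts per gene and transcript, of which 23.4% of the gene values held fractions, and FPKM, which the authors divided by length and depth. How reads with several placements were shared is not given in the sources used here. Here the estimated counts were rounded. All 12 libraries entered 1 quasi-likelihood fit in edgeR 4.0.16 (R 4.3.3) with TMM and filterByExpr (minimum count 10), which kept 14835 of 20566 genes. P-values were adjusted by Benjamini-Hochberg over those genes, with a threshold of 0.05. CPM used TMM-adjusted library sizes. Standard errors came from the log2 fold change and the F statistic. FPKM was used for levels between genes and for ratios. Count ratios added 0.5 to each count and were tested by exact permutation in scipy 1.17.1. The floor of 3 counts covers counting error only, whereas the standard errors include the spread between libraries. The fit was run on simulated counts in which 200 genes were changed. TL-3h against cont called 45.4% of all genes, so the simulation could not check the scaling between libraries. Alternatives were other scalings, filters, DESeq2 1.42.0, the replicate number as a block, and leaving out each library.

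The members and lists were chosen with earlier results of these data known. Values per library are given for PSMB5, PSMB6, PSMB8, PSMB9, PSMB10 and PSME4. For PSME1, PSME2, PSME3 and PSMF1 they are given in cont and TL-3h. The rows taken as PSMB7 are not given in every library. Against cont, values per library are also given for the 5 members with the largest rise and the 5 with the largest fall among those called. Genes beyond the lists were chosen after their values were seen. Total estimated counts were 27111348 to 38591425 per library. The authors' transcript counts were used only for shares.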

Additional observations from a re-analysis of the deposited data

Results flagged for a closer look

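Levels in TL-3d differed from those in TL-3h in 14 of the 44 proteasome genes and in PSMC3IP, by the edgeR test (adjusted p at or under 0.05). This was 31.8% of the members, below the 37.3% of all genes. Of the 14, 13 were lower and 1 was higher, beside 19% and 18.4% of all genes. The largest falls in log2 fold change were in PSME4 (-1.07), PSMG1 (-0.97), PSMD11 (-0.86), PSME3 (-0.86), PSMD7 (-0.82), PSMD5 (-0.71) and PSMA4 (-0.60). The ATPase genes PSMC3 (-0.47), PSMC2 (-0.46) and PSMC5 (-0.40) followed with PSMB1 (-0.47), PSMD13 (-0.35) and PSMD8 (-0.34). PSMD10, a chaperone of the cap also known as gankyrin, was higher (0.56), and PSMC3IP had the largest difference (3.11). Under library size only, 4 members were higher and 2 lower, beside 34.2% and 8.31% of all genes, so most of these falls depend on the scaling. PSME4 and PSMG1 kept their calls under every alternative run.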

How the results depend on the processing

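Of 20 alternatives, 12 moved the count of members called by over 1.5 times in at least 1 of the 5 comparisons. With library size only, 20 members were called in TL-3h against cont (51% of all genes) and 6 in TL-3d against TL-3h (42.5% of all genes). Leaving out 1 library at a time gave 31 to 34 members in TL-3h against cont (34.9% to 48.1% of all genes). It gave 1 to 26 in TL-3d against cont (2.37% to 25% of all genes). In TL-3d against TL-3h it gave 9 to 17 members, and in TL-14d against TL-3d 0 to 5. The fit of all libraries called 37.3% and 2.24% of all genes in these last comparisons, in that order. The DESeq2 Wald test called 5 members in TL-14d against TL-3d (12.5% of all genes), where edgeR called 0 and 13 had an unadjusted p under 0.05 (22.6% of all genes). With cont replicate 3 and TL-14d replicate 1 both left out, a setting chosen after seeing the data, TL-14d against cont called 2 members, and the log2 ratios at 14 days were -1.31 for PSMB8 to PSMB5 and -1.14 for PSMB10 to PSMB7. With library size only, 5 of the 44 members turned sign in TL-3h against cont, 1 in TL-3d against cont and 26 in TL-3d against TL-3h. Those recomputed under every alternative were PSME2 (-0.077) and PSMC5 (-0.042) in TL-3h against cont, and PSMC3 (0.015), PSMD8 (0.14), PSMC2 (0.022), PSMC5 (0.075), PSMB1 (0.0038) and PSMD13 (0.13) in TL-3d against TL-3h. Leaving out 1 library turned the sign of PSME1 in TL-3d (range -0.23 to 0.13) and of PSME2 (-0.24 to 0.047) and PSMF1 (-0.075 to 0.047) in TL-14d. The cause was not tested. Same-numbered libraries did not deviate together in every pair (correlations from -0.15 to 0.48 against cont), so the numbers were not taken as pairs. With the replicate number as a block, 37, 17 and 0 members were called in TL-3h, TL-3d and TL-14d against cont (46.8%, 18.3% and 0% of all genes) and 14 in TL-3d against TL-3h (39.3% of all genes). The 3 libraries of a group limit what a missed threshold can show.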

Other observations

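PSMB8 and PSMB9 lie between genes of the class II region on chromosome 12 of OryCun2.0 in the authors' table, PSMB8 at 23356782 to 23360614 on the minus strand and PSMB9 at 23371426 to 23377476 on the plus strand, next to TAP2 and TAP1. These neighbours, the 3 genes on either side, were chosen after their values were seen. At 3 days the class II genes around them were higher than in cont: RLA-DMB rose from 18.9 to 125 CPM (log2 2.72, adjusted p = 0.018) and RLA-DMA from 11.1 to 71.2 CPM (log2 2.68, adjusted p = 0.012). LOC100351163, annotated as a DQ beta chain, rose from 77.3 to 453 CPM (log2 2.55, adjusted p = 0.010). PSMB8, PSMB9, TAP1 and TAP2, which lie between them, had log2 fold changes of -0.46, -0.65, -0.08 and -0.78 at 3 days and did not pass the test. At 3 days 4 of 7 macrophage markers were called higher, beside 10.6% of all genes, their sum being 383 ± 388 CPM in cont and 1802 ± 405 CPM in TL-3d, and their part in the class II values was not tested. BRD2, a bromodomain gene beside RLA-DMA, was higher at 3 hours (log2 1.38, adjusted p = 8.6e-05).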
